A study of Mus musculus with 2 samples.

Results

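CXC chemokines are small secreted proteins that attract leukocytes through receptors of the CXCR family, and their name describes a pair of cysteines held apart by another residue. The 9 family members described here are Cxcl1, Cxcl2, Cxcl3, Cxcl9, Cxcl10, Cxcl12, Cxcl13, Cxcl14 and Cxcl16, chosen by gene symbol from a table of 20330 Ensembl genes. RNA was sequenced from adipose tissue macrophages (ATM) that had been sorted from visceral fat with antibodies against F4/80 and CD11b. There were 2 libraries, 1 from myeloid-specific Hif-1α KO mice (hMRP8cre+;Hif-1αfl/fl;ApoE-/-) and 1 from WT mice (hMRP8cre-;Hif-1αfl/fl;ApoE-/-). Both were of the C57BL/6 strain and on high-fat diet for 12 weeks, started when the mice were 4 weeks old. WT therefore refers to Hif1a alone, because both groups carried floxed Hif1a alleles and were ApoE-/- by genotype. The Cre transgene is driven by the human promoter of MRP8, also called S100A8, which is active in myeloid cells at large, neutrophils included. Whether a library came from 1 mouse or from pooled mice is not stated. With 1 library per genotype no value has a replicate error, no p-value can be given, and each difference is one between these libraries.

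Within the family, Cxcl1, Cxcl2 and Cxcl3 attract neutrophils through CXCR2 and are induced in macrophages by NF-κB after signals from Toll-like and interleukin-1 receptors. Cxcl9 and Cxcl10 attract T cells and natural killer cells through CXCR3 and are induced by interferons. Cxcl12, Cxcl13 and Cxcl14 are made more steadily in tissues, often by stromal cells, and Cxcl16 is held on the cell membrane and scavenges oxidised lipoprotein. In fat, such signals shape which leukocytes enter during obesity.

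Values are FPKM, fragments per kilobase of transcript scaled to the mapped fragments of the library, a level that is divided by length and so can be compared between genes. Changes are differences of log2(FPKM + 1), KO minus WT, and 3-fold on this scale was the threshold for a call, the fold that the study used for its gene lists. The scale understates the change of low genes. FPKM values summed to 585823 in WT and 568329 in KO, with 9773 and 10124 genes listed above 0. A value listed at 0 need not mean that a gene was silent, since Mrps18c, which encodes a mitochondrial ribosomal protein, was at 135 FPKM in WT and listed at 0 in KO. The estimated depth was about 5971220 fragments in WT and 7466360 in KO. Of the 13 macrophage markers examined, 12 were in the table and all of these were measured in both libraries, at a summed 13349 FPKM in WT against 13519 in KO. Hif1a itself was at 30.4 FPKM in WT against 20.97 in KO, a change of -0.52, a value for the whole gene that does not isolate the floxed exon. Apoe, disrupted in both groups by genotype, was at 94.3 and 117 FPKM, likewise a value for the whole gene that does not isolate the disrupted part.

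All 9 members reached 1 FPKM in both libraries. Their levels spanned more than 3 orders of magnitude. Among these 9 members, Cxcl2 and Cxcl1 stood far above the rest. Together with Cxcl3 they made up 92.6% of the members' summed FPKM in WT and 92.2% in KO. The members' sum was 6184 FPKM in WT against 7413 in KO, which was 1.06% and 1.30% of all FPKM in the library. Other CXC ligands, such as the abundant Pf4 described below, are not in this sum. From highest to lowest in WT the order was Cxcl2, Cxcl1, Cxcl10, Cxcl16, Cxcl3, Cxcl9, Cxcl13, Cxcl12 and Cxcl14. In KO the first 4 and the last of these kept their places, whereas Cxcl12 moved from place 8 to place 5 and Cxcl3, Cxcl9 and Cxcl13 each moved down by 1. Without replicates it cannot be said which neighbours in this order differ beyond their spread.

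**Figure D1:**
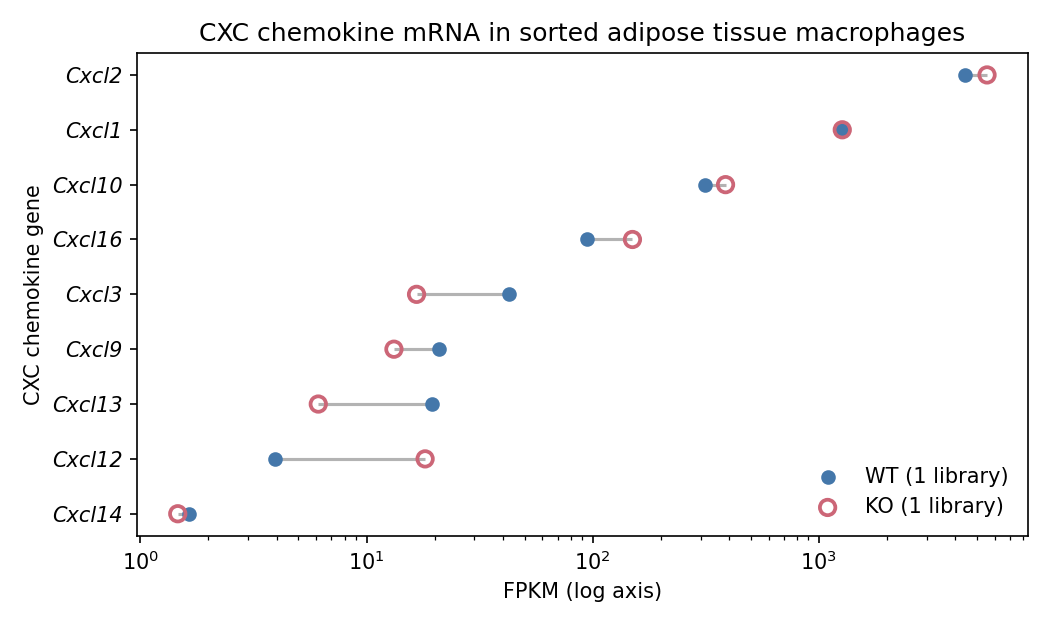
FPKM of each of the 9 members (log axis) in the WT library (filled) and the KO library (open). There was 1 library each, with no error bars because there are no replicates. Cxcl2 was highest at 4416 and 5549 FPKM, and Cxcl12, at 3.94 and 18.2 FPKM, had the widest gap.

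Of the 9 members, 1 was past 3-fold higher in KO (Cxcl12) and 0 were past 3-fold lower, or 11.1% in either direction. Over the 10297 genes that reached 1 FPKM in either library, 27.3% were past 3-fold, 13.6% higher and 13.7% lower. Over the 7586 genes that reached it in both libraries, as all members did, the share was 11.5%. The members' share is thus near this second background, and their count is no result about the family. The median change of the members was 0.0013, that of Cxcl1, against 0.03 over all genes. Changes were above 0 for 5 members and below 0 for 4. At 2-fold, 1 member was past the threshold higher and 2 lower (Cxcl3 and Cxcl13). Over the 10297 genes 45.6% passed in either direction, but that set includes genes that reached 1 FPKM in 1 library only, unlike the members. How far a gene must move to stand out depended on its level. By mean FPKM, 54.1% of genes were past 3-fold at 1 to 5 FPKM, 32.4% at 5 to 10, 20.6% at 10 to 20, 11.7% at 20 to 50, 4.95% at 50 to 100, 2.3% at 100 to 500 and 1.65% at 500 to 10000. These shares, and the SDs by level given below, are drawn from the 10297 genes. They thus include genes that reached 1 FPKM in 1 library only, unlike the members. Shares and SDs by level were not computed for genes that reached it in both.

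**Figure D2:**
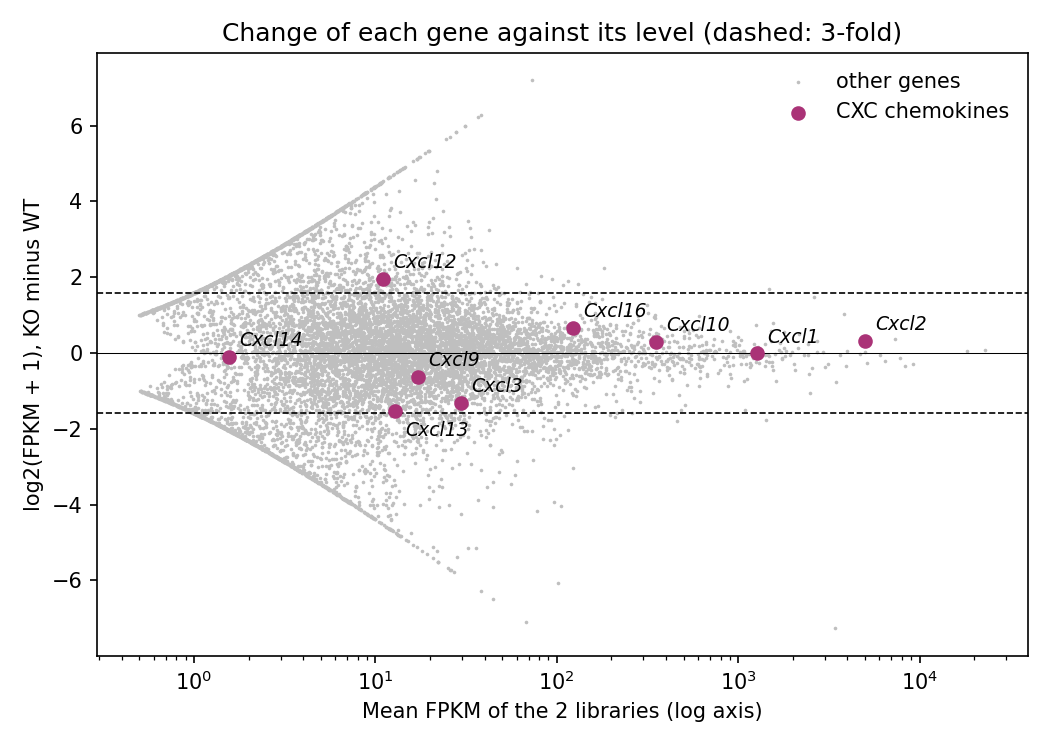
Change of log2(FPKM + 1), KO minus WT, against mean FPKM (log axis) for 10297 genes (grey) and the 9 CXC chemokines (purple), with dashed lines at 3-fold. Cxcl12 lies above the upper line with a change of 1.95, Cxcl13 lies just inside the lower line at -1.53, and the abundant Cxcl1, Cxcl2 and Cxcl10 lie near 0.

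The neutrophil attractants are neighbours on chromosome 5. In GENCODE M21 on GRCm38, Cxcl3 (ENSMUSG00000029379) spans 90786103 to 90789600, Cxcl1 (ENSMUSG00000029380) 90891241 to 90893115 and Cxcl2 (ENSMUSG00000058427) 90903871 to 90905938, all on the + strand. The authors aligned to mm9, so these positions describe the genes and not the alignment. Because the members share an inducer, the bases before their starts are shown, from RefSeq on GRCm38.p6. Each window is the 250 bases upstream of the RefSeq start, which differs by some bases from the GENCODE start, so that the last bases of the Cxcl1 and Cxcl2 windows lie within the gene as GENCODE gives it. The windows are chr5:90890995-90891244 for Cxcl1, chr5:90903649-90903898 for Cxcl2 and chr5:90785851-90786100 for Cxcl3, on the + strand, 5′ to 3′. Capitals mark matches on either strand to an NF-κB motif (GGGAA, any 3 bases, CC), an interferon-stimulated response element (ISRE, GAAA, any 2 bases, GAAA), a STAT motif (TTC, any 3 bases, GAA) or a hypoxia response element (HRE, ACGTG or GCGTG), the short core that HIF-1 recognises.
Cxcl1: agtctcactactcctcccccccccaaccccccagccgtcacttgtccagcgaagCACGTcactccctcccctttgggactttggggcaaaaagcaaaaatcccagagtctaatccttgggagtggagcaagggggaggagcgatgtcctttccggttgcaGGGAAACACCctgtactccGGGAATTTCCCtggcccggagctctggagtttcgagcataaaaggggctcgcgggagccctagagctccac
Cxcl2: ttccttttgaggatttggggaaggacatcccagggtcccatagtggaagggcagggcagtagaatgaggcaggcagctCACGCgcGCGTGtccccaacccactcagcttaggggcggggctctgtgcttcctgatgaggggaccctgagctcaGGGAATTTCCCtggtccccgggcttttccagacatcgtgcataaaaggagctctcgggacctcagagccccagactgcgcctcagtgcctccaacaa
Cxcl3: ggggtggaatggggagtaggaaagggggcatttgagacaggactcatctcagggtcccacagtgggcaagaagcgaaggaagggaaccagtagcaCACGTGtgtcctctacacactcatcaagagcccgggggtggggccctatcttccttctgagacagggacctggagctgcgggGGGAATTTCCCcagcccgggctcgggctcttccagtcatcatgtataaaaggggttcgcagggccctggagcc

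The same run of 11 bases, GGGAATTTCCC, stood in all 3 windows. It begins 71 bases before the start in Cxcl1, 97 in Cxcl2 and 73 in Cxcl3, and it reads as an NF-κB match on both strands. Cxcl1 had a further match, GGGAAACACC, that begins 90 bases before its start. Such a match was present in 4.81% of 27025 promoter windows of the same length. Each of the 3 windows also held HRE letters, at 196 bases in Cxcl1, 172 and 165 in Cxcl2 and 155 in Cxcl3, where the matches on both strands overlap, but 38.6% of all windows hold these 5-base letters. A match is a description of the sequence and not a binding site.

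Cxcl2 was at 4416 FPKM in WT against 5549 in KO. Cxcl1 was at 1269 FPKM in WT against 1271 in KO. Both were among the highest genes of these macrophages, above 99.3% of listed genes in WT for Cxcl1 and above 99.9% for Cxcl2. The changes were 0.33 for Cxcl2 and 0.0013 for Cxcl1, on an estimated 39135 and 61487 fragments for Cxcl2 and 7224 and 9041 for Cxcl1. As a ratio of FPKM, KO over WT, Cxcl2 was at 1.26 (95% interval 1.24 to 1.27) and Cxcl1 at 1.001 (0.970 to 1.03). These exact binomial intervals cover counting error only. They are far narrower than the spread between genes, since the SD of the change over the 182 genes at 500 to 10000 FPKM was 0.69, and both members lie within it.

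Cxcl3, the third CXCR2 ligand of this cluster, was at a much lower level and differed in the direction opposite to Cxcl2. It was at 42.8 FPKM in WT against 16.6 in KO, a change of -1.31, or 2.57 times lower in KO as a ratio of FPKM. The call at 3-fold was not reached, and the SD of the change among the 1711 genes at 20 to 50 FPKM was 1.20. Those genes reached 1 FPKM in either library, not always in both as Cxcl3 did. Within a library the comparison does not depend on scaling: Cxcl2 exceeded Cxcl3 103-fold in WT and 333-fold in KO, and Cxcl1 exceeded Cxcl3 29.7-fold and 76.3-fold. The ratio of Cxcl2 to Cxcl1 moved less, from 3.48 to 4.37. Cxcl2 and Cxcl3 share sequence, so reads can be assigned to the wrong copy: 75 stretches of 36 bases were common to both, which is 7.65% of those in Cxcl3 and 4.03% of those in Cxcl2. The value of the much lower Cxcl3 is therefore uncertain. Cxcl1 shared 0 such stretches with any other gene.

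Messages of this group are short-lived, because AUUUA elements in their 3′ UTR recruit decay factors such as tristetraprolin, the product of Zfp36. In the longest annotated 3′ UTR of each gene (GENCODE M21), written as DNA, the pentamer ATTTA occurred 7 times in Cxcl1, 11 times in Cxcl2 and 5 times in Cxcl3, against 0 to 4 times in the other 6 members. The longer nonamer ATTTATTTA, counted with overlaps, occurred 2 times in Cxcl1 and 4 times in Cxcl2 and in no other member, Cxcl3 included. It is present in 2.32% of 3′ UTRs within the 592 bases that Cxcl1 has, and in 6.31% within the 1494 bases of Cxcl2. The 30 bases richest in ATTTA show this difference between the members, with ATTTA in capitals.
Cxcl1: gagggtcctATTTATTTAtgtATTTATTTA
Cxcl2: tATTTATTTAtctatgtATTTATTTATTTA
Cxcl3: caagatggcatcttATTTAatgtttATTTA

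Decay factors of the Zfp36 family were abundant in both libraries. Zfp36 was at 2030 FPKM in WT against 2223 in KO, and its relative Zfp36l1 at 347 and 432. Of the 9 mRNA decay regulators examined, 8 passed the filter on low values and 0 of these were past 3-fold, with a median change of 0.23. Of the 17 genes of the NF-κB pathway, all 17 passed the filter and 0 were past 3-fold in either direction, with a median of 0.17. The share over all genes that reached 1 FPKM in both libraries, 11.5%, is the background for this count and for those of the lists that follow. Nfkbia, the inhibitor that NF-κB induces, was at 392 and 441 FPKM, and Nfkbiz, a nuclear cofactor, at 268 and 380. The widest differences in this list were those of the adaptors Traf6, at 5.42 and 17.1 FPKM, and Myd88, at 21.6 and 54.6 FPKM.

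Other inflammatory genes under NF-κB control were also examined. Of 10, 9 passed the filter, 1 was past 3-fold higher and 1 past 3-fold lower, with a median change of 0.10. Tnf, which encodes the cytokine TNF, was at 678 and 784 FPKM. Il6 was the higher gene, at 1.41 FPKM in WT against 10.9 in KO. Ptgs2, which encodes cyclooxygenase-2, was the lower gene, at 45.1 and 12.9 FPKM. Il1a, an interleukin-1 gene, was at 7.58 and 19.96 FPKM. Of the 9 genes, 7 had a change above 0 and 2 below, and Cxcl1 and Cxcl2 stood beside high Tnf in both libraries.

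Markers of neutrophils, cells that can themselves make Cxcl2, differed between the libraries. Of 12 such markers 11 were in the table, 5 were above 0 in WT and 7 in KO, and the summed level was 154 FPKM in WT against 525 in KO. S100a8 was at 73.3 and 182 FPKM and S100a9 at 63.4 and 301, and with Csf3r these were the 3 that reached 1 FPKM in both, S100a9 alone past 3-fold. The granule genes Lcn2, at 0.960 and 9.79 FPKM, Ngp, at 0 and 2.61, and Mpo, at 0 and 2.29, passed the filter through KO alone. So did Retnlg, at 0.385 and 2.46 FPKM, and the direction of these 4 genes is set by the filter. The granule genes Camp, Ltf, Elane and Mmp8 were at 0 in both. Their part in the values of Cxcl1 and Cxcl2 was not tested. In bulk RNA such as this, more cells of a type and more RNA per cell cannot be told apart.

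**Figure D3:**
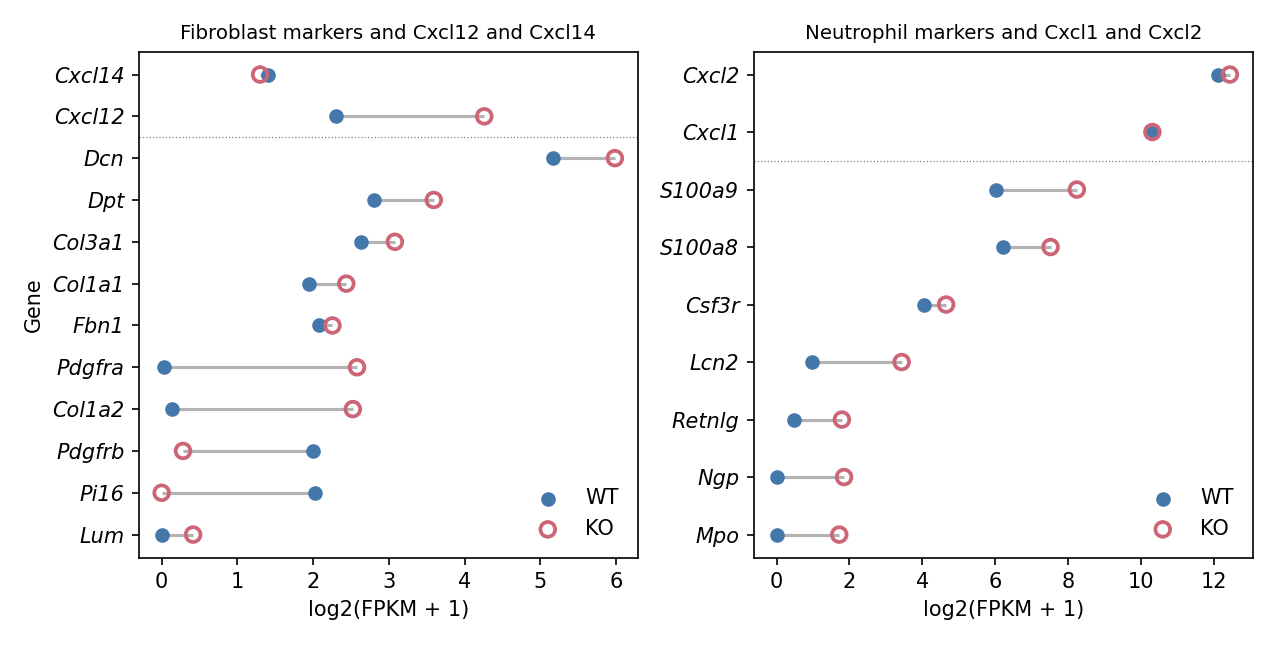
log2(FPKM + 1) in WT (filled) and KO (open) of fibroblast markers with Cxcl12 and Cxcl14 (left) and of neutrophil markers with Cxcl1 and Cxcl2 (right), for markers above 0 in a library. Cxcl12 was at 3.94 and 18.2 FPKM and Dcn, the highest fibroblast marker, at 35.0 and 62.3, while Cxcl1 was at 1269 and 1271, Cxcl2 at 4416 and 5549 and S100a9 at 63.4 and 301.

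The interferon-induced members are also neighbours, and they were measured at very different levels. Cxcl9 (ENSMUSG00000029417, chromosome 5, 92321347 to 92328079) and Cxcl10 (ENSMUSG00000034855, 92346638 to 92348889) lie on the - strand with annotated starts 20.8 kb apart. Their upstream windows, chr5:92328080-92328329 and chr5:92348890-92349139, are printed as read on that strand, since the letters searched differ between them.
Cxcl9: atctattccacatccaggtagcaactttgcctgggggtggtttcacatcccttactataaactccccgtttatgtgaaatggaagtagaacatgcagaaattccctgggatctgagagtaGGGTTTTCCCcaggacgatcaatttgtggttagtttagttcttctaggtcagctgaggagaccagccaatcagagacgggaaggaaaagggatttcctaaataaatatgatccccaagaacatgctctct
Cxcl10: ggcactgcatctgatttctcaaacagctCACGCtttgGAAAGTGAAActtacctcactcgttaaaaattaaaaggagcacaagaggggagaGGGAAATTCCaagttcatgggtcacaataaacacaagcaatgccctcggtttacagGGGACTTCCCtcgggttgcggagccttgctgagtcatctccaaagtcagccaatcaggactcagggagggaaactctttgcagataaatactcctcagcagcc

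Cxcl10 held an ISRE match, GAAAGTGAAA, that begins 213 bases before its start, and NF-κB matches that begin 159 and 103 bases before it. Cxcl9 held 1 NF-κB match, 130 bases before its start, and no ISRE letters in this window. ISRE letters were present in 3.04% of windows of this length, and among the 8 members with a window they were found in Cxcl10 and Cxcl14. The STAT letters, present in 7.18% of windows, were found in Cxcl14 alone. No window was at hand for Cxcl16.

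**Figure D4:**
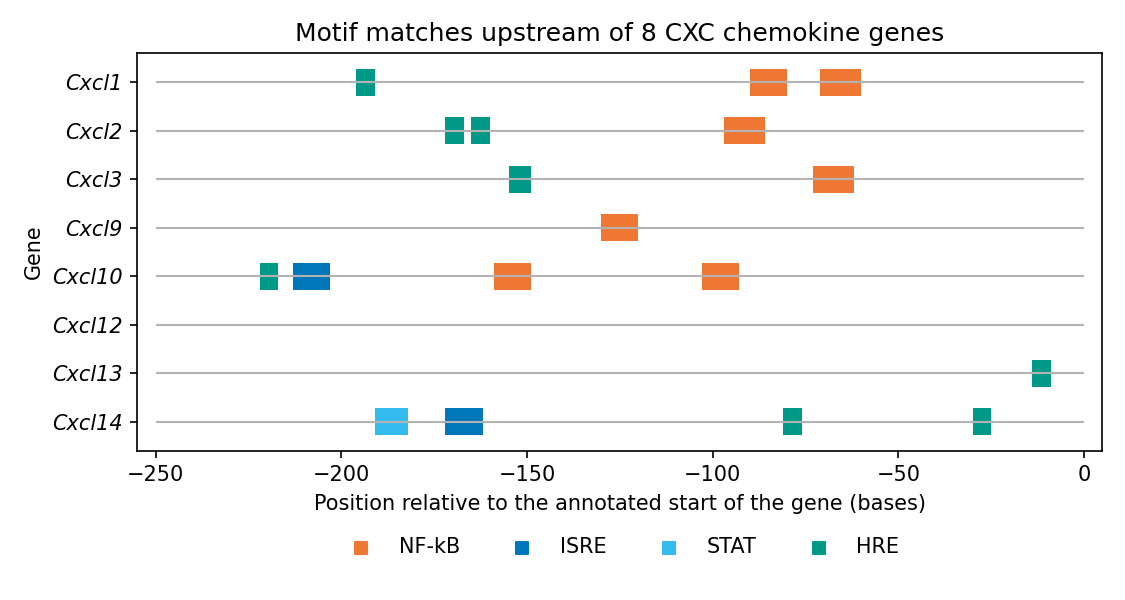
Positions of matches to NF-κB, ISRE, STAT and HRE letters in the 250 bases upstream of 8 CXC chemokine genes, by distance from the annotated start. Cxcl1, Cxcl2 and Cxcl3 each hold an NF-κB match within 100 bases of the start, and the Cxcl12 window holds no match to any of the 4 motifs.

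Cxcl10 was at 315 FPKM in WT against 387 in KO, a change of 0.30. Cxcl9 was at 20.98 FPKM in WT against 13.2 in KO, a change of -0.63. The 2 CXCR3 ligands thus differed in direction, and Cxcl10 exceeded Cxcl9 15.02-fold in WT and 29.3-fold in KO. Neither reached 3-fold. The counting interval of the ratio of FPKM, KO over WT, was 1.17 to 1.30 for Cxcl10, on an estimated 2302 and 3536 fragments, and 0.537 to 0.737 for Cxcl9, on 362 and 285. The SD of the change among genes at their levels was 0.66 for Cxcl10 and 1.53 for Cxcl9. Both changes lie within this spread, which is over genes that reached 1 FPKM in either library. Art3 lies across Cxcl10 on the opposite strand and was listed at 0 in WT, with 0.0918 FPKM in KO.

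Genes of the interferon route were compared beside them. Of 11 pathway genes 9 passed the filter, 0 were past 3-fold, and the median change was -0.15. Ifng, which encodes interferon-γ, was listed at 0 in both libraries. Ifngr2, a chain of the interferon-γ receptor, was at 34.6 FPKM in WT against 14.6 in KO. Irf9 and Jak2 were higher in KO, at 13.9 and 39.3 FPKM and at 9.58 and 23.1 FPKM. The pathway genes therefore lay on either side of 0.

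Genes that interferon-γ induces, as it induces Cxcl9, lay on either side of 0. Of the 11 such genes 8 reached 1 FPKM in both libraries, with 4 changes above 0, 4 below and a median of -0.04, and 1 was past 3-fold in each direction. The other 3, Gbp3, Gbp5 and Igtp, passed the filter through WT alone, so their direction is set by the filter. With them, over all 11, the median was -0.58, with 4 changes above 0 and 7 below. Of the 11, 1 was past 3-fold higher and 3 were past 3-fold lower. Igtp, a GTPase of host defence, was at 26.8 FPKM in WT and listed at 0 in KO, and Gbp5, a further one, at 12.0 and 0.222 FPKM. Ciita, the activator of MHC class II genes, was at 23.6 and 6.36 FPKM. Psmb9, an immunoproteasome subunit, was at 5.18 and 31.0 FPKM. By mean level Igtp, Ciita and Psmb9 lie at 10 to 20 FPKM, where 20.6% of genes were past 3-fold, and Gbp5 at 5 to 10 FPKM, where 32.4% were.

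Cxcl12 was the member with the largest change. It encodes the ligand of CXCR4, which retains and recruits leukocytes and progenitor cells. Cxcl12 (ENSMUSG00000061353, chromosome 6, 117168535 to 117181367, + strand) was at 3.94 FPKM in WT against 18.2 in KO. The change was 1.95, which is past 3-fold, and the ratio of FPKM was 4.61 (counting interval 3.58 to 5.96) on an estimated 74 and 425 fragments. At 10 to 20 FPKM, where its mean lies, 20.6% of 1861 genes were past 3-fold and the SD of the change was 1.53. In WT Cxcl12 lay above 26.7% of listed genes and in KO above 66.3%.

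Stromal cells make much of the Cxcl12 in tissues, so their markers are given beside it. All 10 fibroblast markers were in the table, 9 above 0 in each library and none at 0 in both, and their summed level was 58.4 FPKM in WT against 99.3 in KO. Of these, 5 reached 1 FPKM in both, all with a change above 0 and 0 of them past 3-fold, with a median of 0.49. A further 4 passed the filter through 1 library, which sets their direction. Pdgfra, a receptor of fibroblast progenitors, was at 0.0246 and 4.98 FPKM and Col1a2, a collagen chain, at 0.0948 and 4.75. Pdgfrb, at 2.998 and 0.216 FPKM, and Pi16, at 3.06 and 0, went the other way. Dcn, which encodes decorin and was the highest of the list, was at 35.0 and 62.3 FPKM. The endothelial markers, whose cells also make Cxcl12, summed to 18.7 FPKM in WT against 16.1 in KO over 8 genes, with Cldn5 and Emcn at 0 in both. The 3 that reached 1 FPKM in both, Pecam1, Cdh5 and Kdr, had changes above 0 with a median of 0.23, and Tie1, at 4.12 and 0 FPKM, passed the filter through WT alone. Of 8 mesothelial markers, 7 were at 0 in both libraries and Upk3b alone reached 7.84 FPKM, in KO. The part of such cells in the difference of Cxcl12 was not tested.

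Cxcl13, which draws B cells through CXCR5 and is made by follicular stroma and by resident macrophages of body cavities, was lower in KO. Cxcl13 (ENSMUSG00000023078, chromosome 5, 95956951 to 95961068, + strand) was at 19.5 FPKM in WT against 6.12 in KO. On the log2(FPKM + 1) scale the change was -1.53, or 2.88-fold, just short of 3-fold. As a ratio of FPKM it was 3.19 times lower, on an estimated 134 and 53 fragments, and it passed 3-fold with a pseudocount of 0.1 or 0.01. The SD of the change at 10 to 20 FPKM was again 1.53, over the same genes as for Cxcl12. Within the libraries, Cxcl13 exceeded Cxcl12 4.95-fold in WT, whereas in KO Cxcl12 exceeded Cxcl13 2.97-fold, a reversal of their order that no scaling of the libraries can alter.

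Markers of cells that respond to Cxcl13 or make it are given beside it. Of 8 B cell markers 7 were in the table, Pax5, Cr2 and Fcer2a were at 0 in both, and the sum was 2.75 FPKM in WT against 6.46 in KO, from Cd79a, at 2.50 and 0.222 FPKM, and its partner chain Cd79b, at 0 and 5.52, above all. Among 8 markers of peritoneal macrophages, Gata6, the factor that defines the large resident cells, was at 0 in both libraries. Their sum was 79.8 FPKM in WT against 65.5 in KO, with Timd4, a receptor for apoptotic cells, as the highest in WT, at 53.4 and 25.1 FPKM. Of the 3 that reached 1 FPKM in both, Timd4 and Prg4 had a change below 0 and Alox15, a lipoxygenase at 6.50 and 25.7 FPKM, was past 3-fold higher. The part of these cells in the difference of Cxcl13 was not tested.

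Cxcl14 was the lowest member. Cxcl14 (ENSMUSG00000021508, chromosome 13, 56288643 to 56296551, - strand), which is made by epithelial and stromal cells, was at 1.64 FPKM in WT against 1.46 in KO, a change of -0.10. It rested on an estimated 16 and 18 fragments, and the counting interval of the ratio ran from 0.433 to 1.89. A difference of up to this size was not detectable at this depth. At its mean level of 1 to 5 FPKM, 54.1% of the genes that reached 1 FPKM in either library were past 3-fold.

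Cxcl16 is both a chemokine for CXCR6 and a scavenger receptor of macrophages. Cxcl16 (ENSMUSG00000018920, chromosome 11, 70453983 to 70459984, - strand) was at 94.3 FPKM in WT against 150.0 in KO, above 91.8% and 94.9% of listed genes. The change was 0.66, close to the SD of 0.66 among the 564 genes at 100 to 500 FPKM, where 2.3% were past 3-fold. The ratio of FPKM was 1.59 (counting interval 1.49 to 1.69) on an estimated 1520 and 3023 fragments. Zmynd15 overlaps it by 552 bases on the opposite strand and was at 3.55 FPKM in WT against 13.5 in KO. The library protocol does not describe a step that marks the strand, so reads in the overlap cannot be told apart.

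The proteases that release or trim CXC chemokines were compared next. Of 10, 6 reached 1 FPKM in both libraries, 0 of them past 3-fold, with a median change of 0.06. A further 2, Mmp2 and Dpp4, passed the filter through WT alone, so their direction is set by the filter. With them, over 8 genes, the median was -0.31, with 3 changes above 0 and 5 below, and 1 was past 3-fold lower. Mmp2, which trims Cxcl12, was at 2.64 FPKM in WT and listed at 0 in KO. Adam10, the main sheddase of Cxcl16, was at 19.3 and 23.0 FPKM and Adam17, a further sheddase, at 38.0 and 34.9. Dpp4, which clips Cxcl10 and Cxcl12, was at 1.27 FPKM in WT and listed at 0 in KO. Mmp12, the macrophage elastase, was at 54.3 and 20.7 FPKM.

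Among the receptors for these ligands, Cxcr4 stood far above the rest. Of 10 typical and atypical receptors 6 were listed at 0 in both libraries, among them Cxcr5, the receptor for Cxcl13, and Cxcr6, the receptor for Cxcl16. Cxcr4, the receptor for Cxcl12, was at 426 FPKM in WT against 424 in KO. Its change was -0.01, beside 1.95 for its ligand. Cxcr2 was at 5.83 and 7.96 FPKM, Cxcr3 at 1.33 and 3.20, and the Cxcl12 scavenger Ackr3 at 2.04 FPKM in WT against 0 in KO. Of the 3 receptors that reached 1 FPKM in both libraries 0 were past 3-fold, and Ackr3 passed the filter through WT alone.

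Of the 6 remaining CXC ligands, 5 were in the table, and Cxcl11 is not analysed here. Pf4, a platelet and macrophage chemokine, was above Cxcl1 in both libraries, at 1448 FPKM in WT against 2115 in KO, a change of 0.55. Ppbp was at 5.16 and 1.57 FPKM, Cxcl5 at 0 and 0.0860 FPKM, and Cxcl15 and Cxcl17 were listed at 0 in both. Of the 18 CC chemokines, the other large chemokine family, 10 reached 1 FPKM in both libraries. Among these 2 were past 3-fold lower, Ccl5, at 106 and 24.7 FPKM, and Ccl8, at 2203 and 649 FPKM, and 0 higher. Of the 4 that passed the filter through 1 library, Ccl17 was not above 0 in WT and reached 62.5 FPKM in KO, and Ccl11, Ccl22 and Ccl25 passed through WT. The median change of the 10 was 0.17, against 0.0013 for the CXC members, and whether the families differ was not tested.

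**Figure D5:**
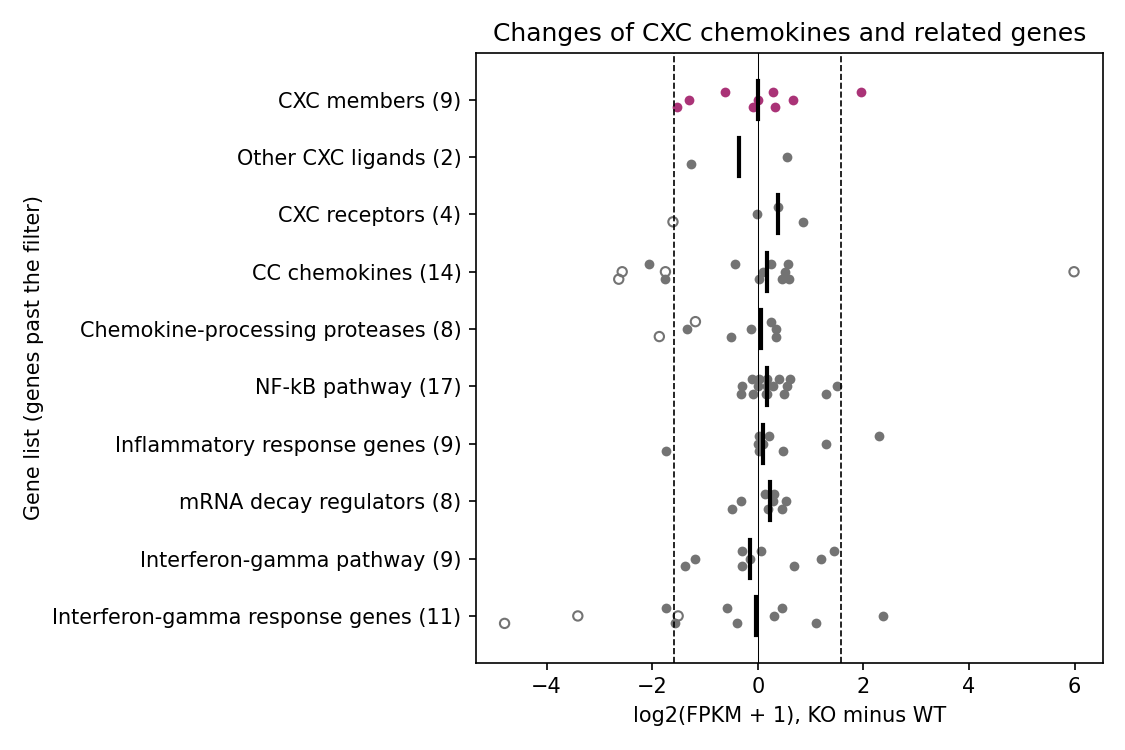
Change of log2(FPKM + 1), KO minus WT, for each gene past the filter in 10 gene lists (their number in brackets), filled where both libraries reached 1 FPKM and open where 1 did, with the median of the filled points as a black bar and dashed lines at 3-fold. The CXC members (purple) have 1 gene of 9 past 3-fold and the NF-κB pathway 0 of 17, where 11.5% of all genes at 1 FPKM in both libraries were.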

How the data were processed

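RNA sequencing of sorted ATM gave 1 WT and 1 KO library. The authors deposited a single table of FPKM values per Ensembl gene, and the submitters' processing notes name CASAVA 1.8.2, TopHat2 2.0.9, Cufflinks 2.2.1 and the mm9 build, while annotation and filters are not given in the sources used here. FPKM is normalised for length and library size, so no count model was used. The mutant column was matched to the KO sample. Of 20749 rows, 401 that repeated another in full were dropped and 18 with other values for an identifier were summed, which left 20330 genes, 20035 (98.5%) with a symbol. Gene positions, transcript lengths and 3′ UTRs were from GENCODE M21 (GRCm38) and promoters from RefSeq (GRCm38.p6), where 8 of 9 members matched.

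Changes were log2(FPKM + 1), KO minus WT, for genes that reached 1 FPKM in a library, and a call needed 3-fold. Unless stated otherwise, list counts and medians are over genes that reached 1 FPKM in both libraries, a choice made after seeing the data. Depth was estimated from the smallest recurring value of FPKM times length in kb, taken as 1 fragment, 0.167 in WT and 0.134 in KO. That value rested on 11 genes in WT and 19 in KO. Fragment numbers are therefore rough, and the counting intervals leave out the error of this value. Counting intervals at 95% (exact binomial on the ratio of estimated fragments) cover counting error only, and PCR copies are not independent. Scripts used Python 3.11.15 and scipy 1.17.1 and were tested on simulated data. All members were named. Other genes could be named if they were CXC receptors or ligands, defining markers, or among the 4 largest changes or 2 highest means of another list, and not every such gene is printed. Further genes, such as Mrps18c, Prg4, Adam10, Adam17, Ccl22, Art3 and Zmynd15, were named after their values were seen. The members and lists were chosen with earlier results of these data known. Alternatives were other pseudocounts, filters, scalings, row handling and a 2-fold threshold.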

Additional observations from a re-analysis of the deposited data

How the results depend on the processing

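Pseudocounts of 0.1 and 0.01 and both scalings gave 36 other values for the 9 member changes, all within an allowance of 1.5-fold, used because no replicate spread exists, and none changed sign. Filters and row handling cannot alter a single gene's change here. Cxcl12 ranged from 1.95 to 2.2, Cxcl13 from -1.67 to -1.47, Cxcl3 from -1.36 to -1.25 and Cxcl1 from 0.0013 to 0.068. The count of members past 3-fold higher was 1 in every setting. The count lower, 0 as reported, was 1 with a pseudocount of 0.1 or 0.01 (Cxcl13, whose low KO value the pseudocount of 1 shields) and 2 with a 2-fold threshold. Over all genes the counts higher and lower, 1402 and 1413, became 429 and 447 when 1 FPKM was required of both libraries and 598 and 646 when the mean had to reach 5 FPKM, both over fewer genes, and 2380 and 2314 with a 2-fold threshold. Cxcl14 failed the mean of 5 and gave no value there. No paired analysis was possible because only 1 library per genotype was analysed, and for the same reason no replicate could be left out. Depth limits Cxcl14, and below about 50 FPKM the spread of changes was wide over genes that reached 1 FPKM in either library.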

Other observations

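Markers of other cell types found in visceral fat were also measured. Of 8 T cell markers 7 were in the table, and Cd3e, Cd3d, Cd3g, Cd8a and Lck were at 0 in both libraries, with a sum of 28.9 FPKM in WT against 31.4 in KO that came from Cd2 and Cd4. The 8 dendritic cell markers summed to 126 and 140 FPKM, mostly Cd209a at 122 and 131 FPKM, while Clec9a and Itgae were at 0 in both. The others past the filter were above 1 FPKM in a single library and went both ways, Zbtb46 at 0 and 9.45 FPKM, Xcr1 at 1.65 and 0.0588 and Dpp4 at 1.27 and 0. The 8 adipocyte markers summed to 95.9 and 100.1 FPKM, mostly Fabp4 at 90.1 and 91.4 FPKM, with Adipoq, Plin1, Retn and Adrb3 at 0 in both. Cfd, at 0 and 7.11 FPKM, Lep, at 0 and 1.60, and Cidec, at 5.83 and 0, each passed the filter through 1 library, which sets their direction.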
